A study of Mus musculus with 2 samples.

Results

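The genes described here are the cyclins and cyclin-dependent kinases that drive cells from the start of DNA replication to mitosis: the E-type cyclins Ccne1 and Ccne2, the B-type cyclins Ccnb1 and Ccnb2, Ccnf, the kinases Cdk1 and Cdk2 and the kinase-binding subunit Cks2. They were chosen by name from a set of 10 symbols, of which 8 had a row among the 10666 genes of the expression table. Ccna2 and Cks1b had no row and were not analysed here. The question was in which order their transcript levels rise and fall along the cell cycle, and whether that order holds in each culture.

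The cells were cortical neurospheres, free-floating spheres of neural stem and progenitor cells, raised from dorsal telencephalon tissue that was taken from C57BL/6 wild-type embryos at E14.5. All cells received epidermal growth factor and basic fibroblast growth factor at 10 ng/ml each. There was 1 genotype, 1 medium and no treatment, and the single group comprised 2 replicate cultures, with 5748 cells in culture 1 and 7057 in culture 2. Neurospheres are dissociated and selected by growth in culture, so they are a model of cycling progenitors and not a census of the cortex, and the labels do not say how many embryos each culture pooled.

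A cyclin is the regulatory partner of a cyclin-dependent kinase, which is inactive without one. Cyclin E with Cdk2 acts at the passage from G1 into S phase, and cyclin B with Cdk1 acts at the entry into mitosis. E-type cyclins are marked for destruction by an SCF ubiquitin ligase and B-type cyclins by the anaphase-promoting complex, so each protein is removed after its task. Cyclin F, encoded by Ccnf, activates no kinase and is itself the substrate-binding part of an SCF ubiquitin ligase. Cks2 is a small adaptor that docks on the kinase of such complexes. Transcription is the other layer of control: E2F factors activate genes needed for S phase, and a later group of genes is activated in G2 and mitosis by factors that bind CHR and CCAAT elements in their promoters.

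The deposited values are normalized expression levels on a linear scale, and levels below are means over cells of log2(value + 1). Cell-cycle position θ is an angle from 0 to 2π deposited for each cell, and cells were divided here into 8 arcs of 0.25π. The position was itself calculated from cell-cycle genes, among which these genes may be, so position and level are not independent. A second position was therefore computed from 86 S-phase and G2/M genes that included none of the 10 symbols. It still rests on genes that vary together with the members, so it removes only their own part in the position. The circular correlation of the second position with the deposited one was 0.947 over 12805 cells, with a median difference of 0.034π. By the study's methods, the cultures are aligned to each other before the deposited position is calculated, so in that position they are not independent. The second position used gene weights taken from both cultures together, so they are not fully independent there either. With 2 cultures of 1 condition no test between groups could be made, and each result is given as a value in each culture.

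Total UMIs per cell, a measure of depth, had a median of 19477 in culture 1 and 14637 in culture 2. The cultures shared 48 cell barcodes, and nothing showed that those cells were the same. Of the radial glia markers in the table, Fabp7 was detected in 100% of cells of both cultures and Vim in 99.2% and 99.9%, while Pax6, the cortical progenitor factor, was detected in 21.1% and 23.1%. The remaining radial glia markers were Nes (93.3% and 89.8%), Slc1a3 (92.1% and 94%) and Hes1 (44.5% and 50.5%). Of the oligodendrocyte progenitor markers, Olig2 was detected in 97.3% and 91.9% of cells, but Cspg4 in 11.8% and 13.7%, Pdgfra in 8.77% and 1.81% and Sox10 in 4.26% and 0.751%. The neuronal markers were Map2, at 77.7% and 63.6%, Dcx, at 7.34% and 1.56%, and Rbfox3, at 3.78% and 4.31%. The astrocyte markers were Aldh1l1, at 43.2% and 28.8%, and S100b, at 18.6% and 6.65%. The part of these other lineages in the results was not tested. The arcs were filled unevenly: the arc from 1.75π to 2π held 1789 cells of culture 1 and 3149 of culture 2, whereas the arc from 1.25π to 1.5π held 85 and 279, and that from 1.5π to 1.75π held 64 and 189.

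The expression values carried a feature that bears on every level below. When each value was multiplied by the total UMIs of its cell, the values of a gene fell on evenly spaced steps, and the height of 1 step differed between genes and between cultures. For Ccne1 it was 15077 in culture 1 and 22498 in culture 2, whereas for Ccnb2 it was 21867 and 15591. Of the values up to 5 steps, the share within 0.15 of a whole number of steps ran from 76.6% for Cdk1 in culture 1 to 93% for Ccne1 and Ccne2 in culture 2. Cks2 was an exception, with 52.5% and 60.2% whole, and 10.9% of its nonzero values in culture 2 lay within 0.1 of 0.5 step. Cdk2 had 6.04% and 9.75% of its values at 0.5 step. A factor specific to gene and culture was thus present in the deposited values, and no source used here states it. Dividing by the step height gave an estimate of UMIs, named recovered UMIs below and stated per 10000 UMIs of the same cells. The recovered UMIs of a cell are its deposited value times its total UMIs, divided by a constant of gene and culture, so that a number of recovered UMIs per cell also follows depth.

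All 8 genes varied with cell-cycle position in both cultures. The measure was the share of variance over cells (R²) explained by 2 harmonics of θ, and a gene was counted as varying if R² was at least 0.05 in each culture, which held for 4.01% of the 10666 genes. Ccnb1 had the highest R², at 0.747 in culture 1 and 0.607 in culture 2, and ranked 13th among all genes by its lower value. Cks2 followed with 0.6 and 0.596 and Cdk1 with 0.682 and 0.544. Ccnb2, Ccne2, Ccne1 and Ccnf had R² values of 0.237 to 0.356. Cdk2 was last, with 0.146 and 0.0954 and rank 254 of 10666. With total UMIs and their square taken out, R² remained at 0.134 and 0.0914 for Cdk2 and at 0.741 and 0.602 for Ccnb1. On the position computed without the 10 symbols, R² was 0.731 and 0.572 for Ccnb1 and 0.146 and 0.0933 for Cdk2.

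Ccne2 and Ccne1, the 2 E-type cyclins, formed the first wave. Ccne2 (ENSMUSG00000028212, chr4:11191351-11204779 of GRCm38, plus strand) was detected in 26.6% of cells of culture 1 (95% exact binomial interval, 25.5 to 27.8%) and 10.2% of culture 2 (9.49 to 10.9%). These intervals cover counting error only. Its level was near 0 in the arc from 1.75π to 2π, at 0.02 and 0.01 in cultures 1 and 2, and reached 0.72 in both between 0.5π and 0.75π. The share of cells with a value above 0 went from 2.35% and 0.889% in the first of these arcs to 62.3% and 46.2% in the second. Median depth in the same arcs was 18437 and 13990 UMIs and then 20252 and 15726. The fall was steep, with 61.7% and 40.1% of cells between 0.75π and 1π and 15.5% and 4.91% in the next arc. The gene overlaps Ints8 on the opposite strand, and whether strand was used in counting is not given in the sources used here.

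Ccne1 (ENSMUSG00000002068, chr7:38097984-38107534, minus strand) kept a higher floor than Ccne2 and stayed up longer. Its level was 0.13 and 0.11 in cultures 1 and 2 between 1.75π and 2π, already 0.32 and 0.37 between 0 and 0.25π, and highest, at 1.0 and 0.98, between 0.75π and 1π. It was detected in 14.8% and 7.75% of cells in the first of these arcs and in 79% and 59.7% in the last. In the next arc, from 1π to 1.25π, the level dropped to 0.30 and 0.22. Ccne2 was also above its own floor between 0 and 0.25π, at 0.12 and 0.10, with 13% and 7.36% of cells.

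Cdk2 (ENSMUSG00000025358, chr10:128697939-128705031, minus strand), the kinase partner of cyclin E, had the shallowest wave. Its level was 0.10 and 0.09 between 1.75π and 2π and 0.56 and 0.50 between 0.5π and 0.75π. In recovered UMIs per 10000, its highest arc exceeded its lowest by 5.42-fold in culture 1 and 6.18-fold in culture 2, the smallest ratios among the members for which a ratio could be formed. Detection ran from 11.7% and 6.92% to 56.8% and 39.6% of cells. Between 1π and 1.25π it was still detected in 37.7% and 23.1% of cells, where Ccne2 had fallen to 15.5% and 4.91%.

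Cdk1 (ENSMUSG00000019942, chr10:69335146-69352938, minus strand), the mitotic kinase, rose earlier than its B-type partners. Its level was 0.58 and 0.44 between 0.25π and 0.5π, 1.22 and 1.05 in the next arc, 2.05 and 1.79 between 0.75π and 1π, and 2.42 and 2.19 between 1π and 1.25π. The share of cells with Cdk1 was 83.6% and 63.5% between 0.5π and 0.75π, against 41% and 26.1% for Ccnb1 and 12.6% and 14.5% for Ccnb2 in the same cells. After 1.25π it fell to 0.80 and 0.93. The floor between 1.75π and 2π was 0.18 and 0.17, with 19.6% and 12.2% of cells.

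Cks2 (ENSMUSG00000062248, chr13:51645232-51650660, plus strand) followed Cdk1 with a later rise. Between 0.5π and 0.75π its level was 0.59 and 0.72, and between 1π and 1.25π it reached 2.61 and 2.80, with 91.4% and 92.6% of cells above 0. The arc after that differed between the cultures, with 0.69 over 85 cells in culture 1 and 1.39 over 279 cells in culture 2. Its floor also differed, at 0.14 and 0.23, and detection there was 13.2% and 18.5%. Its values had the lowest share at whole steps, so its recovered UMIs are the least certain of the members.

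Ccnb1 (ENSMUSG00000041431, chr13:100778650-100786570, minus strand) had the tallest wave of the cyclins. Its level was 0.42 and 0.33 between 0.5π and 0.75π, 1.30 and 0.92 in the next arc and 2.70 and 2.20 between 1π and 1.25π. In that arc 99% and 92.2% of cells had a value above 0, against 11.5% and 8.89% between 1.75π and 2π. A cell with Ccnb1 there held on average 8.84 and 4.62 recovered UMIs of it, compared with 1.11 and 1.08 in the arc from 1.75π to 2π. These numbers are not scaled to depth, whose median was 20527 and 17813 UMIs in the first arc and 18437 and 13990 in the second. The ratio of the highest to the lowest arc was 55.5-fold and 44.7-fold per 10000 UMIs, the highest among the members for which a ratio could be formed. None was formed for Ccne2 in either culture or for Ccne1 in culture 1, whose lowest arcs held 1 to 3 cells with the gene.

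Ccnb2 (ENSMUSG00000032218, chr9:70407692-70421547, minus strand) rose last and fell last. Its level between 0.75π and 1π was only 0.40 and 0.37, with 33.4% and 33.7% of cells, and it reached 1.19 and 1.01 in the following arc. It then held at 1.02 and 1.08 between 1.25π and 1.5π and at 0.98 and 0.91 between 1.5π and 1.75π. Both B-type cyclins have a processed pseudogene in the annotation, and reads shared with those copies were not separated here.

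Ccnf (ENSMUSG00000072082, chr17:24222198-24251484, minus strand) rose with the G2 genes and ended first among them. It was detected in 49.6% and 36.3% of cells between 0.75π and 1π and in 60.9% and 46.6% between 1π and 1.25π. In the arc after it, which ends at 1.5π, the share was 3.53% of 85 cells and 3.23% of 279 cells, which was close to the 3.63% and 1.43% between 1.75π and 2π. In those same cells Ccnb1 was detected in 78.8% and 77.1% and Ccnb2 in 54.1% and 67%. Median depth between 1.25π and 1.5π was lower than in the arc before, at 14110 against 20527 UMIs in culture 1 and 11882 against 17813 in culture 2.

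**Figure D1:**
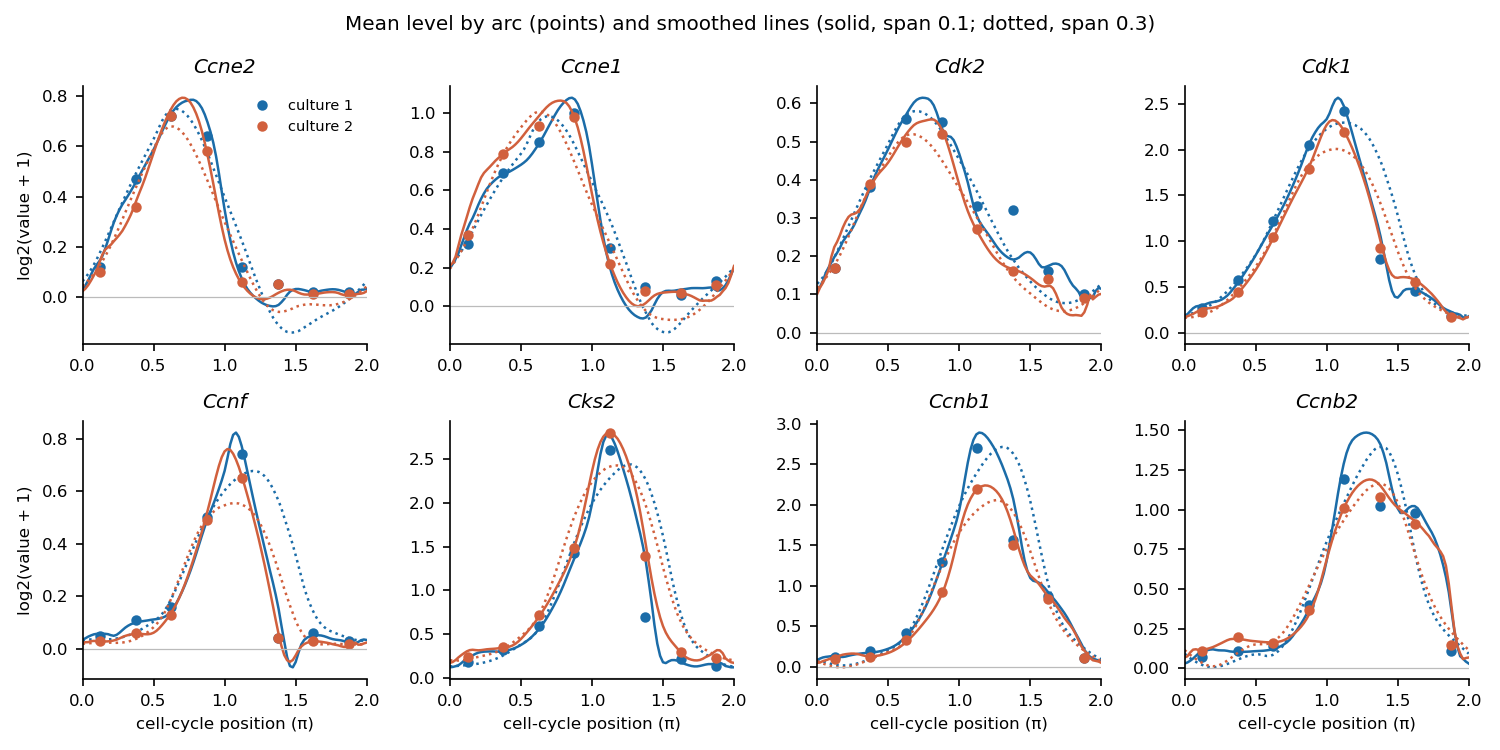
Level of each gene, as log2(value + 1), against cell-cycle position in units of π; points are means over the cells of each 0.25π arc, solid lines are periodic loess lines with span 0.1 and dotted lines with span 0.3, in blue for culture 1 and orange for culture 2. The dotted lines fall below 0 for Ccne1 and Ccne2, the solid lines for Ccnf dip to -0.07 and -0.05, and the dotted lines reach their maxima later than the solid lines for Ccnb1, Ccnb2 and Cks2.

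**Figure D2:**
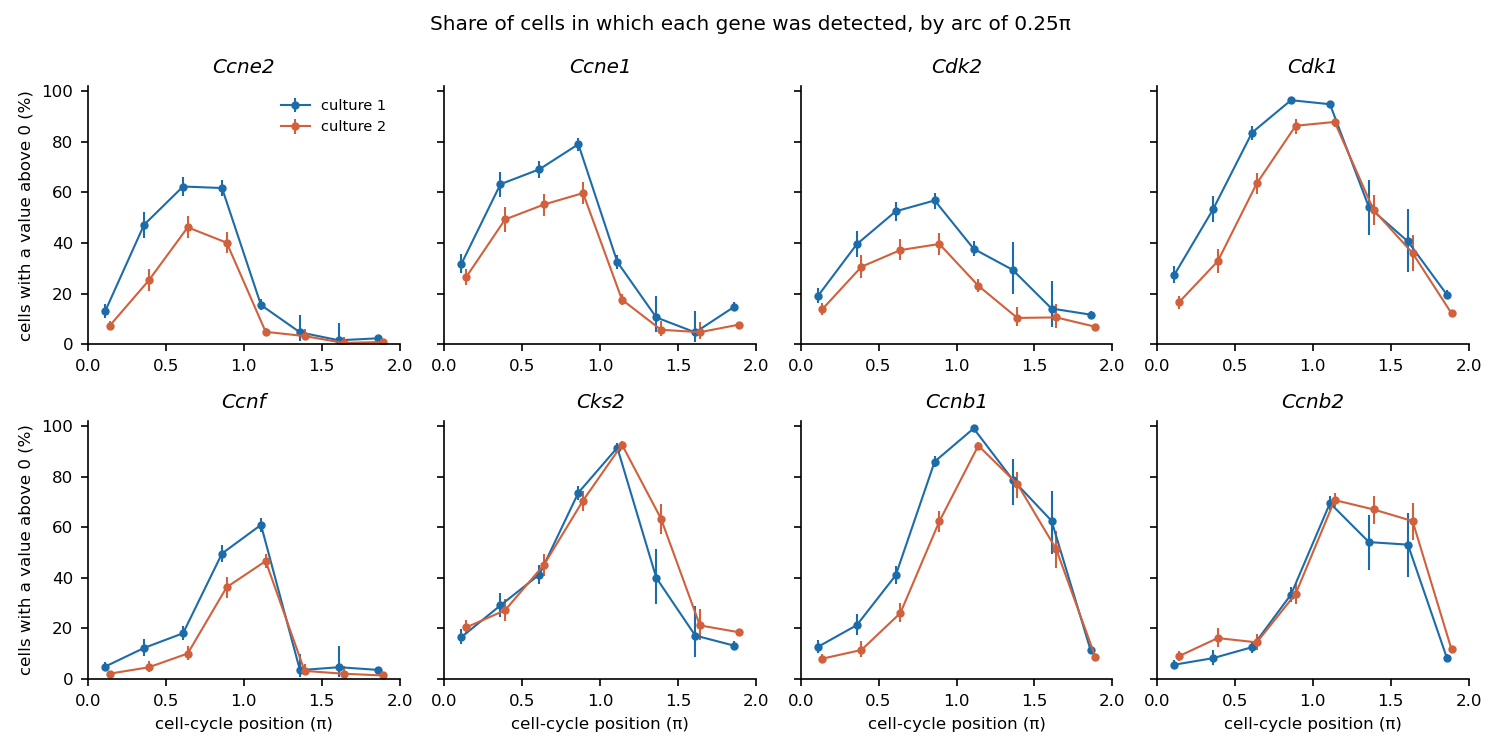
Share of cells with a value above 0 (%) against cell-cycle position in units of π, by arc and culture, with 95% exact binomial intervals as bars. The Ccnf share falls from 60.9% and 46.6% to 3.53% and 3.23% in 1 arc, whereas that of Ccnb1 stays at 78.8% and 77.1%.

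Order along the cycle was read from the maximum of a periodic loess line with a span of 0.3. In culture 1 the maxima were at 0.655π for Ccne2, 0.695π for Ccne1, 0.695π for Cdk2, 1.12π for Cdk1, 1.21π for Ccnf, 1.27π for Cks2, 1.31π for Ccnb1 and 1.39π for Ccnb2. In culture 2 they were, for the same genes, at 0.62π, 0.635π, 0.67π, 1.06π, 1.06π, 1.18π, 1.26π and 1.38π. The 2 cultures gave the same order for 26 of the 28 pairs of genes, and the remaining pairs were Ccne1 with Cdk2 and Cdk1 with Ccnf, each at 1 position in 1 culture. The E-type cyclins had a mean maximum at 0.651π and the B-type cyclins at 1.33π, a gap of 0.681π, with 0.673π in culture 1 and 0.69π in culture 2.

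These positions depended on the span. In steps of 0.1π, Ccnb1 had a level of 2.98 and 2.42 between 1.1π and 1.2π in cultures 1 and 2. At its span 0.3 maxima it had 1.59 (1.3π to 1.4π) and 1.90 (1.2π to 1.3π). Ccnb2 had 1.37 and 1.12 between 1.1π and 1.2π, 1.54 and 1.06 in the next step and 0.90 and 1.07 in the step of its maxima. Span 0.3 thus placed the maximum past the highest level for Ccnb1 and Ccnb2 in both cultures. For Ccnb2 in culture 2 the levels of these steps were close. For Ccne1 span 0.3 placed the maximum, at 0.695π and 0.635π, before its highest arc, from 0.75π to 1π. The gap of 0.681π includes both shifts. From span 0.3 to span 0.1 the E-type mean moved from 0.651π to 0.778π and the B-type mean from 1.33π to 1.23π. On data repeated over 3 cycles a span of 0.3 takes in most cells of a cycle at each point, and the lines fell to -0.14 for Ccne1 and Ccne2 in culture 1, where no value can lie. With a span of 0.1 the lines of these genes still fell below 0 in culture 1, to -0.06 and -0.04, and that of Ccnf did so too, at -0.07 and -0.05 in cultures 1 and 2, where its lowest points at span 0.3 were 0.03 and 0.02. At span 0.1 the maxima lay at 0.738π for Ccne2, 0.775π for Cdk2, 0.818π for Ccne1, 1.05π for Ccnf, 1.06π for Cdk1, 1.12π for Cks2, 1.17π for Ccnb1 and 1.29π for Ccnb2, as means of both cultures. The gap between E-type and B-type cyclins shrank to 0.451π, with 0.4π and 0.502π in cultures 1 and 2. The order of means was kept for 26 of 28 pairs, and 2 neighbouring pairs changed places: Cdk2 with Ccne1, and Ccnf with Cdk1.

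The wave order was firmer between the early and the late genes, and for Ccnb2 as the last, than among neighbours. Ccne1, Ccne2 and Cdk2 came before Cdk1, Ccnf and Cks2, which came before Ccnb1 and then Ccnb2, in both cultures at both spans. Within the first 3 genes the maxima at span 0.1 were 0.0375π and 0.0425π apart, less than the 0.055π to 0.075π between the cultures for the same gene. Ccnf and Cdk1 were 0.0125π apart, against 0.05π and 0.035π between cultures. Ccnb1 followed Cks2 by 0.05π, against 0.005π and 0.045π between cultures, and at span 0.3 by 0.065π, against 0.09π and 0.05π. By contrast, at span 0.1 Ccnb2 followed Ccnb1 by 0.123π, against 0.045π and 0.03π between cultures. In steps of 0.1π, however, Ccnb2 and Ccnb1 in culture 2 were both highest between 1.1π and 1.2π. Ccnb2 then stayed nearly flat up to 1.5π, with levels of 1.12, 1.06, 1.07 and 1.05. Its later maximum in culture 2 thus lay on a flat top. On the position computed without the 10 symbols, again at span 0.1, the order of the 8 genes was the same and Ccnb2 followed Ccnb1 by 0.117π.

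**Figure D3:**
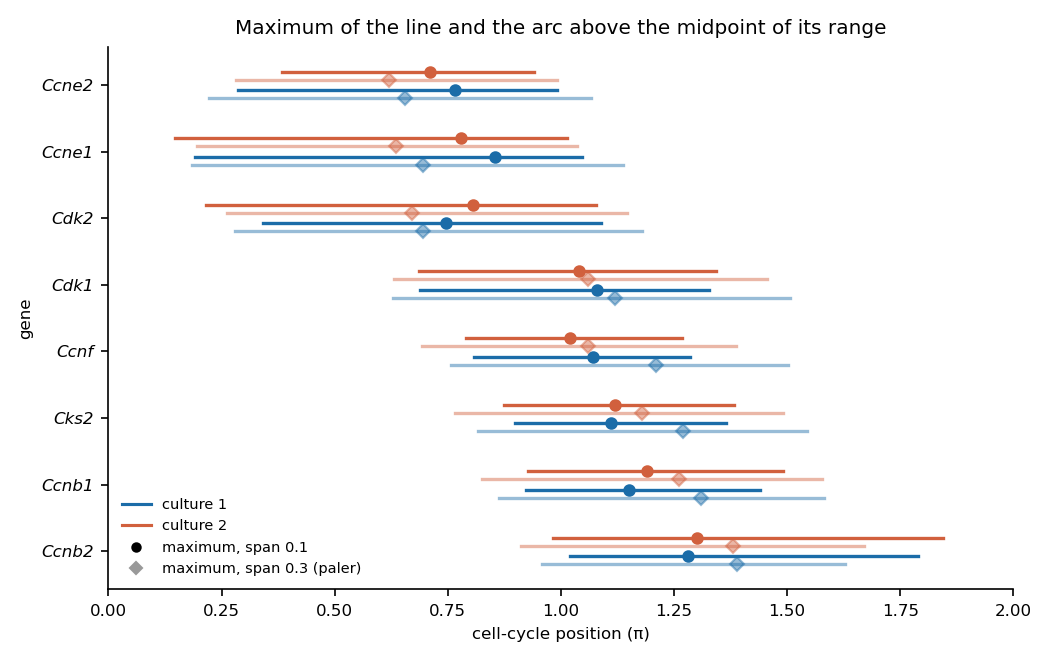
Position of the maximum (circles, span 0.1; paler diamonds, span 0.3) and arc over which the line is above the midpoint of its range (horizontal lines) for each gene and culture, against cell-cycle position in units of π. The circles run from 0.738π for Ccne2 to 1.29π for Ccnb2 as means of both cultures, and the Ccnb2 line extends furthest right.

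The G2 and mitotic genes were also separated on their falling side. The midpoint of a line is the level halfway between its lowest and highest points. At span 0.1 the line fell to the midpoint of its range at 1.28π and 1.27π for Ccnf, at 1.33π and 1.34π for Cdk1, at 1.36π and 1.38π for Cks2, at 1.44π and 1.49π for Ccnb1 and at 1.79π and 1.84π for Ccnb2. At span 0.3 the falling midpoints of these genes lay closer together, from 1.44π for Ccnf to 1.65π for Ccnb2 as means of both cultures, than their maxima, from 1.09π to 1.38π. All 28 pairs of genes had the same order of falling midpoints in both cultures, at span 0.1 and at span 0.3. The rising midpoints had the same order in 27 of 28 pairs at each span. Among the late genes Cdk1 rose first, at 0.688π and 0.687π, and Ccnb2 last, at 1.02π and 0.982π. In steps of 0.1π, the share of cells with Ccnf went from 60.6% and 47.2% between 1.1π and 1.2π to 21.2% and 13.6% between 1.2π and 1.3π. Over the same step Ccnb2 was detected in 75.3% and 74.3% and then in 75% and 66.7% of cells.

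Promoters of the genes were set beside their waves, since sequence was not used to choose the genes. RefSeq promoter sequences of GRCm38.p6 were matched for 7 of the 8 genes, all but Ccne2, and read from 250 bases before the annotated start to 30 after it. Searched on both strands were the CHR element (TTTGAA or TTCGAA), the CCAAT box (CCAAT, also read as ATTGG) and E2F-type octamers (TTTGGCGC, TTTCGCGC, TTTCCCGC or TTTGCCGC). The windows of 32851 promoters held these motifs in 18.4%, 36.1% and 2.12% of cases, and CHR together with CCAAT in 6.92%. No 2 matches overlapped in the 7 windows, and a match is a description of letters and not of binding. The sequences shown are those of Ccne1, from the first wave, and of all 5 late genes, so that windows with and without each motif can be compared; capitals mark the motifs.
Ccne1 promoter, chr7:38107461-38107740, minus strand: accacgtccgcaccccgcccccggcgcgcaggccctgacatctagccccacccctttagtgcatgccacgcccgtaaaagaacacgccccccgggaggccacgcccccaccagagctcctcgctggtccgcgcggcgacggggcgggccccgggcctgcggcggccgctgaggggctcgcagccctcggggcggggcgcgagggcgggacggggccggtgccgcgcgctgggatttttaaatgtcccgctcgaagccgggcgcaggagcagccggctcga
Cdk1 promoter, chr10:69352883-69353162, minus strand: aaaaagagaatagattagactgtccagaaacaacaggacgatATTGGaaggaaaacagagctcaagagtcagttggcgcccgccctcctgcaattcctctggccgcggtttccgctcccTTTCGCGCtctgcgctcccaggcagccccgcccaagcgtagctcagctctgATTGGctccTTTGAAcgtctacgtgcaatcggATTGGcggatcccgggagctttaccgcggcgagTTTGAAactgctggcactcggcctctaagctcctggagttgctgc
Ccnf promoter, chr17:24251380-24251659, minus strand: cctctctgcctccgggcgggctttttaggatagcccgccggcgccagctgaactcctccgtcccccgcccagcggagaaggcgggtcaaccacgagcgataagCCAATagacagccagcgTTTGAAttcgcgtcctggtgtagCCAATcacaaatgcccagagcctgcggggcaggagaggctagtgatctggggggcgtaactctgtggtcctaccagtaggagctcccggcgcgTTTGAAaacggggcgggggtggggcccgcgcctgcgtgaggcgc
Cks2 promoter, chr13:51644982-51645261, plus strand: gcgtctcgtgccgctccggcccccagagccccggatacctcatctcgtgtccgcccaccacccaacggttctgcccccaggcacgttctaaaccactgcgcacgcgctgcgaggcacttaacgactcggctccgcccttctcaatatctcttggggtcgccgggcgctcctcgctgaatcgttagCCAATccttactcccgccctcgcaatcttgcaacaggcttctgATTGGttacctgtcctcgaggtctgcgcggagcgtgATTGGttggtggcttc
Ccnb1 promoter, chr13:100786457-100786736, minus strand: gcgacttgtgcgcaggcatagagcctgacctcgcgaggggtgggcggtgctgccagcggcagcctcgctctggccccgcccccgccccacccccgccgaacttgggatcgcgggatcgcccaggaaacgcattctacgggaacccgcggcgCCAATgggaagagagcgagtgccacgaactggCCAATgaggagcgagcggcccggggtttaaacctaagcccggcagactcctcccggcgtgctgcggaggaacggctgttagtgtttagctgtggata
Ccnb2 promoter, chr9:70421525-70421804, minus strand: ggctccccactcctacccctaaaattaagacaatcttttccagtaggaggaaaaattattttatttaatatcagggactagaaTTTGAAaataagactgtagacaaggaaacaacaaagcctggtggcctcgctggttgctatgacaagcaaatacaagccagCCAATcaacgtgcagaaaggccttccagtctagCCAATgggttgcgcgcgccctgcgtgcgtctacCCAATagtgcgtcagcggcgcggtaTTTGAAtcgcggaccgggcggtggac

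The late genes shared CCAAT boxes, which were found in the windows of Cdk1 (3 matches), Ccnb2 (3), Cks2 (3), Ccnb1 (2) and Ccnf (2). Cdk2 had 1 and Ccne1 had none. The letters TTTGAA occurred in 3 of the 7 windows, those of Cdk1, Ccnf and Ccnb2, at 2 places each, and a copy close to the start began at -15 in Cdk1, at -14 in Ccnf and at 5 in Ccnb2, counted from the first transcribed base as 1. Ccnb1, with the highest R² of the 8, had neither listed CHR form in its window. An E2F-type octamer was present in Cdk1 (TTTCGCGC, beginning at -131) and on the opposite strand in Cdk2 (TTTCCCGC, beginning at -140). None of the 4 octamers was found in the Ccne1 window.

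Ratios between related genes changed along the cycle, in a manner shared by the cultures for the pairs described here except Cks2 with Cdk1. Only the change of a ratio along position is described, because its level also depends on how well each transcript is captured. The log2 ratio of recovered UMIs of Ccne1 to Ccne2 was 1.47 and 1.98 in cultures 1 and 2 between 0 and 0.25π, fell to 0.31 and 0.54 between 0.5π and 0.75π, and rose to 1.52 and 2.10 between 1π and 1.25π. Ccne2 transcripts were thus concentrated in the middle of the Ccne1 wave. The ratio of Cdk1 to Cdk2 climbed from 0.85 and 0.21 between 0.25π and 0.5π to 4.08 and 3.99 between 1π and 1.25π.

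The ratio of Ccnb1 to Ccnb2 fell towards the end of the cycle. It was 2.26 and 1.51 on the log2 scale between 1π and 1.25π, 1.17 and 0.34 in the next arc and 0.05 and -0.25 between 1.5π and 1.75π. Over the same arcs the ratio of Cdk1 to Cdk2 also fell, to 1.62 and 2.08 between 1.5π and 1.75π. The ratio of Ccnb1 to Cdk1 rose by a similar amount in both cultures, from -1.92 and -1.77 between 0.5π and 0.75π to 1.07 and 0.96 between 1.25π and 1.5π. It was back at -0.85 and -0.49 between 1.75π and 2π. Cks2 relative to Cdk1 rose from -1.20 and -0.30 between 0.5π and 0.75π to 0.04 and 0.78 between 1π and 1.25π. The cultures then parted: between 1.25π and 1.5π this ratio fell to -0.21 in culture 1 and rose to 1.27 in culture 2.

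**Figure D4:**
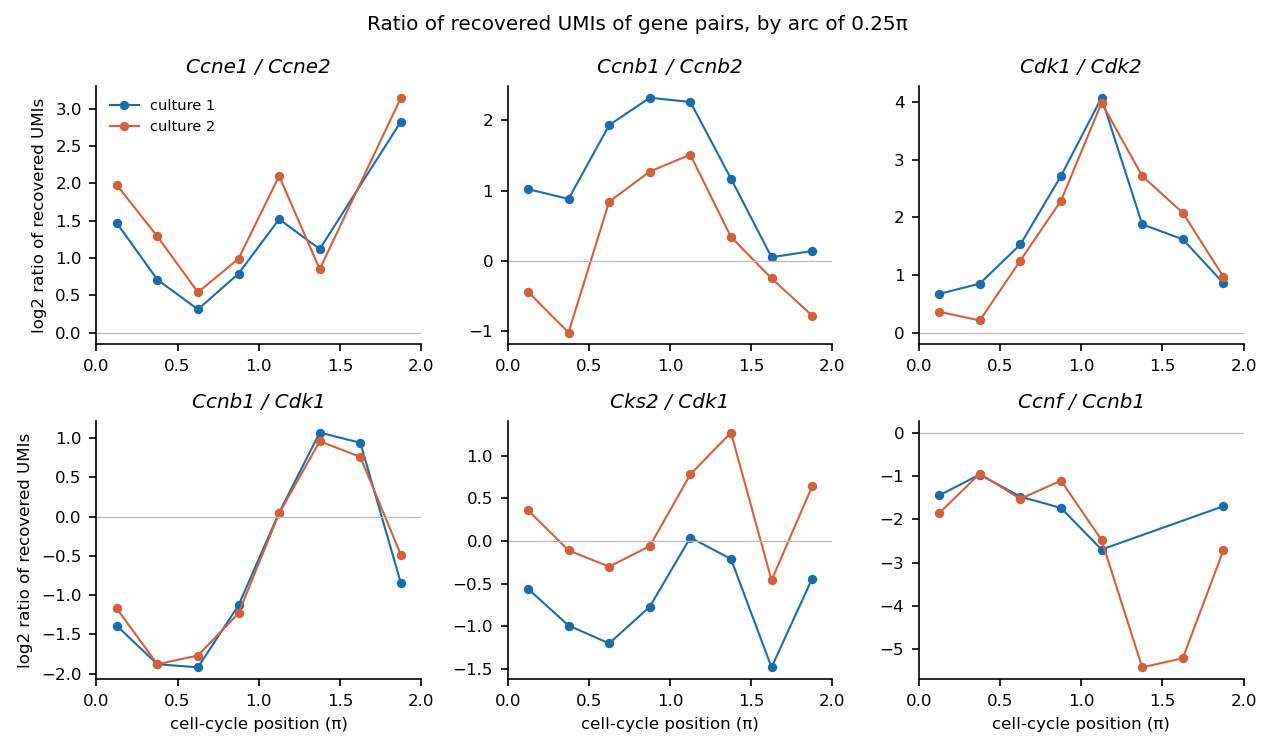
Log2 ratio of recovered UMIs for 6 gene pairs against cell-cycle position in units of π, in arcs of 0.25π, for cultures 1 (blue) and 2 (orange); arcs with 3 or fewer cells holding either gene are left out. The Cdk1 to Cdk2 ratio peaks at 4.08 and 3.99 between 1π and 1.25π in both cultures.

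The cultures differed in the amount of these transcripts, and by how much depended on the scale. Over all cells, recovered UMIs per 10000 were 1.45 in culture 1 and 0.694 in culture 2 for Cdk1, 1.09 and 0.592 for Ccnb1, 0.375 and 0.203 for Ccne1, 0.21 and 0.0861 for Ccne2, 0.213 and 0.122 for Cdk2 and 0.211 and 0.117 for Ccnf. These 6 genes were 1.75-fold to 2.43-fold higher in culture 1. Ccnb2, at 0.254 and 0.294, and Cks2, at 1.17 and 1.03, had ratios of culture 1 to culture 2 of only 0.866 and 1.13. On the deposited scale the log2 ratio was smaller for 7 of the genes, at 0.53 against 1.07 for Cdk1, for example, but for Ccnb2 it turned from -0.21 to 0.27. Culture 1 also had a smaller share of its cells between 1.75π and 2π.

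Within an arc the difference varied by gene and by arc. Between 0.75π and 1π, where the E-type genes were high, the log2 ratio of culture 1 to culture 2 in recovered UMIs was 0.82 for Ccnb1 and 0.72 for Cdk1, and 0.54 for Ccne2, 0.33 for Ccne1, 0.29 for Cdk2, 0.19 for Ccnf, 0.01 for Cks2 and -0.23 for Ccnb2. Between 1π and 1.25π it was 1.54 for Ccne2, 0.95 for Ccne1, 0.71 for Ccnb1, 0.70 for Cdk1, 0.60 for Cdk2 and 0.49 for Ccnf, but -0.04 for Ccnb2 and -0.05 for Cks2. Between 1.75π and 2π it ran from 1.09 for Ccnf and 0.98 for Ccne2 to 0.06 for Ccnb1, with -0.67 for Cks2 and -0.86 for Ccnb2. Over 9614 genes with enough cells between 1π and 1.25π, the median was 0.01 and the central 90% ran from -0.90 to 0.83. On the deposited scale the same genes had a central 90% of only -0.47 to 0.55, Cdk1 and Cdk2 both had 0.13, Cks2 had -0.21 and Ccnb2 had 0.48. Between 0.75π and 1π the direction depended on the scale for most members. Deposited values there gave -0.21 for Ccne1, -0.16 for Ccnf, -0.15 for Cks2, -0.11 for Cdk2 and -0.10 for Ccne2. Ccnb2 turned to 0.21, and Ccnb1 (0.53) and Cdk1 (0.17) stayed above 0. There was 1 library per culture, so no error can be given for these differences, and library and culture cannot be told apart.

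**Figure D5:**
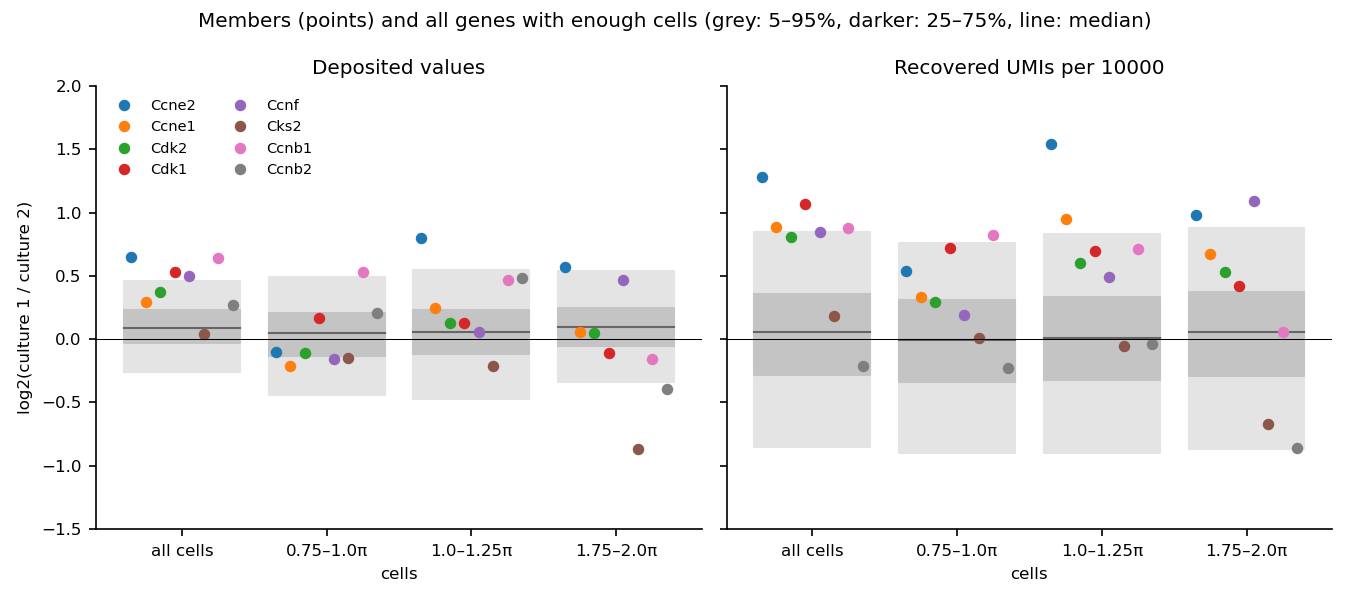
Log2 ratio of culture 1 to culture 2 for each gene (points) over all cells and within 3 arcs, for deposited values (left) and recovered UMIs per 10000 (right); grey boxes give the central 90% and 50% of all genes with enough cells and the line their median. Between 1π and 1.25π the box of 90% spans -0.47 to 0.55 on the left and -0.90 to 0.83 on the right.

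The stages deposited with the cells gave a coarser version of the same order. By the Seurat stages, Ccne1 had a level of 0.17 and 0.15 in G1 cells, 0.85 and 0.86 in S cells and 0.47 and 0.28 in G2M cells of cultures 1 and 2. Ccnb1 had 0.14 and 0.12 in G1, 0.60 and 0.38 in S and 2.36 and 1.88 in G2M. Both the Seurat stages and θ use the expression of cell-cycle genes, so they are not independent of the levels.

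The 5-stage labels of the SchwabeCC method included cells in which these genes did not match the label. Of the cells labelled G2 or G2.M, 531 in culture 1 and 589 in culture 2 lay within 0.25π of θ = 0. Ccnb1 was detected in 9.6% and 7.3% of them, against 97.9% and 92.6% of the 419 and 460 cells with the same labels within 0.25π of π. Cdk1 was detected in 17.9% and 12.7% of the first set and in 95.7% and 89.1% of the second. All of these shares in the first set were near or below those of all cells between 1.75π and 2π, which were 11.5% and 8.89% for Ccnb1 and 19.6% and 12.2% for Cdk1. Both sets were chosen by θ, which is calculated from cell-cycle genes. Low shares near 0 and high shares near π thus follow in part from the choice, and they are no separate evidence against the labels.

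The number of the 8 genes detected in a cell also followed position. It averaged 0.852 and 0.683 between 1.75π and 2π, where none was detected in 42.7% and 48.9% of cells, and 5.36 and 4.28 between 0.75π and 1π, the arc in which the E and B waves overlap. Between 1π and 1.25π it averaged 5.01 and 4.36, so only in culture 1 was the overlap arc the highest. Median depth was 22966 and 17148 UMIs in the overlap arc and 20527 and 17813 in the next, and its part was not tested. Between 0.75π and 1π, Ccne1 and Ccnb1 were both detected in 68.2% and 37.2% of cells. The product of their separate shares was 67.9% and 37.2%, so within the arc the genes were found together about as often as their shares alone would give. Over all cells, Ccnb1 and Cdk1 were found together in 39.3% and 21.6% of cells against products of 27.2% and 11.8%. Both genes were high between 1π and 1.25π and low between 1.75π and 2π. An excess over all cells thus follows at least in part from position, and it cannot be set against the value within 1 arc.

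Ccne1 and Ccne2 were found together in excess on their falling side. Between 1π and 1.25π, both were detected in 89 cells of culture 1 and 20 of culture 2, which was 1.66 and 2.07 times the product of their shares. Between 0.5π and 0.75π the same ratio was 1.05 and 1.1. Levels still changed within the arc from 1π to 1.25π, and the part of that change and of depth in the excess was not tested.

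Other regulators of these kinases were read from lists. Of the 77 listed genes in the table, 28 varied with position by the rule above, against 4.01% of all genes. The position θ was calculated from cell-cycle genes, among which the listed genes may be, so their R² is not independent of it. The second position was made without the symbols of the members, and no position was made without the listed genes. How much of their share this accounts for was not tested. Of 12 kinases, phosphatases and related genes of the Cdk1 switch, 9 varied. Aurka, a mitotic kinase, and Bora, which helps it act on Plk1, had maxima at 1.25π and 1.16π and at 1.23π and 1.06π at span 0.3, near those of Ccnf and Cks2. Cdc25c, a phosphatase that removes the inhibitory phosphate from Cdk1, had its maximum at 1.35π and 1.31π, next to Ccnb1 and Ccnb2. Pkmyt1 and Wee1, the kinases that add that phosphate, were earlier at span 0.3, at 0.81π in both cultures and at 0.825π and 0.815π. At span 0.1 Pkmyt1 stayed early, at 0.82π and 0.845π. Wee1 moved to 1.07π and 1.01π, near Cdk1 and Ccnf at that span, so its early position depended on the span. Chek1, the replication checkpoint kinase, was at 0.605π and 0.625π, close to the E-type cyclins.

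Of 19 ubiquitin ligase components and regulators, 7 varied. Those tied to the anaphase-promoting complex split in time: Fbxo5, its inhibitor in S and G2, had maxima at 0.84π and 0.805π, and its activator Cdc20 at 1.34π and 1.31π. Ube2c, its ubiquitin-conjugating enzyme, had its maximum at 1.31π and 1.24π, with R² of 0.743 and 0.725. The spindle checkpoint genes Bub1b and Mad2l1 had maxima at 1.25π and 1.15π and at 1.15π and 1.12π. Skp2, the substrate receptor of an SCF ligase, was early, at 0.72π and 0.66π. Among 21 transcription factors 7 varied, of which E2f1 had R² of 0.231 and 0.251 and a maximum at 0.665π and 0.62π, and Foxm1, an activator of G2 genes, 0.104 and 0.138 with a maximum at 1.14π and 1.09π. Mybl2, E2f8 and Tfdp1 had maxima between those, from 0.715π to 0.825π over both cultures.

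The inhibitors and the other cyclins differed in how many varied. Of 7 CDK inhibitors and pocket proteins 4 did so (57.1%), with Cdkn2c at 1.22π and 1.1π, the pocket protein gene Rbl1 at 0.795π and 0.745π, Cdkn2b at 1.71π and 1.7π, and Cdkn1a, the p53 target p21, at 1.67π in both cultures. The maxima of Cdkn2b and Cdkn1a at span 0.3 lay in the sparse arc of 64 and 189 cells. At span 0.1 they moved into the fullest arc, to 1.91π and 1.9π for Cdkn2b and to 1.91π in both cultures for Cdkn1a. Of 18 other cyclins and CDKs only Ccng1, a p53-responsive cyclin, did so (5.56%, near the 4.01% of all genes), with R² of 0.115 and 0.0981 and a maximum at 1.6π and 1.61π. That maximum also lay in the sparse arc, and at span 0.1 it was at 1.9π and 1.92π. The D-type cyclins, which act before cyclin E, did not reach R² of 0.05 in both cultures: Ccnd1 had 0.00815 and 0.0366, Ccnd2 0.0189 and 0.0804, and Ccnd3 0.0537 and 0.0409, although Ccnd1 was detected in 98.6% and 99.7% of cells. The maxima of all these regulators are subject to the same dependence on span as those above.

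The genes with the most similar profiles were found by correlation of means over 20 bins of equal cell number, taking the lower of the 2 cultures among the genes that varied. The values describe 20 bins that share cells and position, and carry no test. Ccnb1 was closest to Ube2c (r = 0.999 and 0.992) and the spindle gene Ckap5 (0.991 and 0.991), and Ccnb2 to the centromeric histone gene Cenpa (0.991 and 0.994) and to Tacc3 (0.997 and 0.99). Cdk1 was closest to Cit (0.99 and 0.996) and Knl1 (0.989 and 0.993), Cks2 to Cenpe (0.997 and 0.996) and Kif2c (0.995 and 0.997), and Ccnf to Cenpl (0.994 and 0.992) and Bora (0.99 and 0.991). Ccne1 was closest to Slbp (0.983 and 0.98), which binds histone mRNA, and to the chromatin assembly gene Chaf1b (0.971 and 0.966). Ccne2 was closest to Slfn9 (0.98 and 0.984) and Chaf1b (0.972 and 0.976), and Cdk2 to the replication genes Fen1 (0.984 and 0.986) and Rpa2 (0.982 and 0.981).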

How the data were processed

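Spliced transcripts of 2 replicate neurosphere cultures were quantified by the authors with Alevin (Salmon 1.3.0) against GRCm38, cells with outlying depth, gene number, mitochondrial share or doublet score were removed by them, and no further doublet filter was applied. The deposited expression values are a signal normalized by library size on a linear scale; whether they are integrated values is not given in the sources used here. The authors also deposited the depth of each cell, which is the total of its estimated counts. The deposited per-cell table also holds θ and stages. By the methods, θ of the neurospheres is the angle around the origin in the first 2 principal components of variable cell-cycle genes, after both cultures were integrated with Seurat. The labels and the methods give different kit versions. All per-sample columns were mapped to a culture.

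Analyses were run in Python 3 with numpy. Levels were log2(value + 1). Lines were periodic loess of degree 2 (span 0.3). R² came from 2 harmonics of θ fitted to all 10666 genes. Both steps were tested on simulated data. The whole-step estimate and the combinations of span 0.1 with other settings were chosen after seeing the values, as were the promoter window and the motifs. Names in the text are all members, the regulators that varied (at most 5 per list, by the lower R²) and the 2 most similar genes of each member; others named, namely Wee1, Skp2 and the D-type cyclins, were chosen after their values were seen. The members and lists were chosen with earlier results of these data known. Alternatives were spans, pseudocount, detection only, the second position, depth quartiles, R² thresholds, depth as covariate, a detection filter and leaving out each culture. The plan counted 45 pairs of 10 genes, of which 28 pairs of 8 genes could be formed.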

Additional observations from a re-analysis of the deposited data

How the results depend on the processing

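The gap between E-type and B-type cyclins, 0.681π, kept its direction under all alternatives but moved by more than the spread between the cultures under most: 0.451π with span 0.1, 0.635π with span 0.2, 0.63π with span 0.5, 0.663π with pseudocount 0.1, 0.621π for detection only and 0.667π on the position computed without the members. It was 0.441π, 0.371π and 0.536π with span 0.1 combined with the second position, with detection only and with cells between the depth quartiles. Leaving out 1 culture gave 0.673π to 0.69π. Pairs of genes in the same order in both cultures numbered 25 to 28 of 28 under all alternatives. All 8 members varied with position under every alternative except an R² threshold of 0.1, where Cdk2 did not and 7 remained. Regulators that varied numbered 16 at that threshold and 41 at a threshold of 0.02, against 28, and 29 to 31 in a single culture. The maximum moved by more than the spread between cultures for 6 of 8 genes with span 0.1 and for 1 of 8 on the second position. No paired analysis was possible because there is a single group. Sparse cells between 1.25π and 1.75π limit the falling side, and detection of the low genes is limited by depth.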
